A study of Mus musculus with 52 samples.

Results

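The material described here is the set of RNA-seq libraries that compares ribosome-bound RNA of WT choroid plexus endothelial cells (ECs) with the RNA of the whole choroid plexus. Its members are the 4 RiboTag libraries labelled as WT choroid plexus, 2 bound and 2 input, out of 16 RiboTag libraries and 52 samples in the series. The series asks how ECs of the circumventricular organs, which lack a blood-brain barrier (BBB), differ from ECs of barrier-forming brain regions, and how they respond to beta-catenin signaling. In RiboTag mice Cre recombination adds an HA epitope to the ribosomal protein Rpl22, and ribosomes of the recombined cells are then collected with an antibody against HA. All 16 RiboTag libraries come from mice labelled adult and male, with Rpl22 ribotag/+ and the transgene Pdgfb-CreER, in which Pdgfb regulatory sequences drive a tamoxifen-dependent Cre; 4-hydroxytamoxifen was injected into WT and beta-catenin stabilized mice several weeks before dissection. WT mice carried no further allele, and beta-catenin stabilized mice also carried Ctnnb1 flex3/+. The WT cortex libraries, 2 bound and 2 input, and the beta-catenin stabilized choroid plexus libraries, 2 bound and 2 input, are used for comparison. The choroid plexi of several animals were pooled for each sample and snap-frozen, and the input was an aliquot of homogenate saved before the precipitation. Because nothing in the labels describes the replicates further, p-values measure the spread between libraries of the same group. That spread was estimated from all 16 RiboTag libraries together, so the cortex and stabilized libraries also set it.

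The choroid plexus lines parts of the brain ventricles and makes cerebrospinal fluid. A single layer of epithelial cells, sealed by tight junctions and bearing cilia, surrounds a stroma of fibroblasts, mural cells and macrophages in which the capillaries lie. Unlike capillaries of the cortex, which form the BBB with tight junctions, specific transporters and little vesicle traffic, choroid plexus capillaries are fenestrated, so that the barrier between blood and cerebrospinal fluid lies in the epithelium. In bulk tissue, fewer cells of a type and less RNA per cell cannot be told apart.

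The libraries held 8668205 and 10968145 estimated counts for input and 7517032 and 7585218 for bound replicates 1 and 2. At 3 counts, which is the upper limit that a count of 0 allows, the level per library would be 0.274 to 0.399 CPM (counts scaled to the size of the library), for counting error only. On the TMM-normalised scale used for the values below, that level averaged 0.398 CPM over the input libraries and 0.366 over the bound ones. The labels give every mouse as male, but all 4 libraries held reads of Xist, the RNA of the inactive X chromosome of females (28 and 74 counts in input, 2592 and 5263 in bound), together with reads of 4 Y-linked genes (958 and 818 in input, 1742 and 1174 in bound). The beta-catenin stabilized choroid plexus libraries also held both, whereas the WT cortex libraries held 2387 to 2845 counts of the Y-linked genes and 0 of Xist, so that sex cannot be told apart from tissue in the comparison with cortex. The stabilized cortex libraries, which also enter the fit, held 0 to 23 counts of the Y-linked genes and 108 to 1426 of Xist. Transcripts annotated as miRNA took 58.4 to 60.1% of the TPM in input and 62.9 to 63.2% in bound while holding 0.706 to 0.957% of the estimated counts. For that reason fold changes below were fitted on counts with TMM normalization. Levels of different genes were compared as TPM rescaled so that nuclear protein-coding genes alone make up the total, called rescaled TPM. The minimum of 10 TPM that defines EC-enriched and depleted transcripts was set on raw TPM. On raw TPM the median gene stood 0.53 higher in bound on the log2 scale (pseudocount 1), against 0.00 on TMM-normalised counts and 0.45 with library size alone. Each fold change is therefore to be read against the value of the median gene on its scale.

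The starts of 16 of the 30 pan-endothelial genes were found in a RefSeq table of promoters (mouse GRCm38.p6, 250 bases before to 50 bases after the start), with 21 promoters in all. Because these 30 genes moved together (below), 4 of their promoters, picked because they hold the letters CAGGAAG or ACAGGAA, are shown with 1 promoter of the epithelium that holds neither. Of the 21, 9 held one or both of these and 12 held neither. Capitals mark matches, on either strand, to the 7 short motifs searched: the ETS letters CAGGAAG and CCGGAAG, the combined FOX and ETS letters ACAGGAA, which overlap CAGGAAG by 6 letters, the SOX letters AACAAT, the TCF/LEF letters TTCAAAG, the OTX letters TAATCC and the KLF letters CCACCC.
Emcn, chr3:137340828-137341127, plus strand: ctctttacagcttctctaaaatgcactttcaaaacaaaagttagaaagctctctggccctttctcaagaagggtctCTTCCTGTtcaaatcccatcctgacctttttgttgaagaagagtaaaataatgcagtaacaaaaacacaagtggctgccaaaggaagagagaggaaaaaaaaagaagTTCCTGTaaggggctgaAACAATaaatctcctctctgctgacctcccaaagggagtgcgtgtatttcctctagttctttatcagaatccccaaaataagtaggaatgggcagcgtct
Egfl7, chr2:26580833-26581132, plus strand: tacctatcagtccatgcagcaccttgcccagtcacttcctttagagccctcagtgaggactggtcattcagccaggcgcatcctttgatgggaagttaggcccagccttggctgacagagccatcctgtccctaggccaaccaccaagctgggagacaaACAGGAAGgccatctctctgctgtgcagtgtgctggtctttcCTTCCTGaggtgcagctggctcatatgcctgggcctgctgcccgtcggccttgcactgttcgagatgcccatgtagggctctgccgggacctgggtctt
Robo4, chr9:37401722-37402021, plus strand: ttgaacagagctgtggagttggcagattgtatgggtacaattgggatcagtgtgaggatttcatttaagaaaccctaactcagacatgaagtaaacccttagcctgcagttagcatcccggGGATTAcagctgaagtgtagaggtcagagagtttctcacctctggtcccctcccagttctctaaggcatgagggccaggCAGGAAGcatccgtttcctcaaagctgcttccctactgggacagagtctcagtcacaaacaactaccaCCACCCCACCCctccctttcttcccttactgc
Tie1, chr4:118489800-118490099, minus strand: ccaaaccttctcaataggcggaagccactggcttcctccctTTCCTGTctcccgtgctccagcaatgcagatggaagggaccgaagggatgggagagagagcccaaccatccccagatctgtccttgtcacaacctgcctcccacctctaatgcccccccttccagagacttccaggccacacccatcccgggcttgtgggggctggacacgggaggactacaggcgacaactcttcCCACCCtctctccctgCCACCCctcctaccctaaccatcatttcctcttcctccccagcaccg
Aqp1, chr6:55336049-55336348, plus strand: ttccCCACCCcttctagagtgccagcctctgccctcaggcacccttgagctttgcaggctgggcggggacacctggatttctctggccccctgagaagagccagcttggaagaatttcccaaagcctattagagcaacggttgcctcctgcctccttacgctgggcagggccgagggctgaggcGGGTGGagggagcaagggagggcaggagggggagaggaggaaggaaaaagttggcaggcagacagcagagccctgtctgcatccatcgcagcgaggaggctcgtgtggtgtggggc

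CAGGAAG lay in 33.3% of the pan-endothelial promoters in 13.3% of all 32851 promoters of this length and in 12.3% of those of the protein-coding genes tested. For ACAGGAA the same 3 shares were 28.6%, 8.67% and 7.33%, and for the SOX letters 19.0%, 10.7% and 6.25%. The other ETS letters, CCGGAAG, lay in 0 of the 21 pan-endothelial promoters, against 8.86% of all and 14.9% of those tested. The TCF/LEF letters lay in 0 of the 21 too, against 5.14% and 3.53%, and the OTX letters in 1, against 7.06% and 5.82%. Among all transcripts enriched in bound (defined below) CAGGAAG lay in 12.2% of 541 promoters, a share like that of all promoters. In the 36 epithelial promoters CAGGAAG had a share of 13.9% and ACAGGAA of 11.1%. CCACCC, which occurs in the Aqp1 promoter, lay in 47.2% of the 36 epithelial promoters, in 38.1% of the pan-endothelial ones, in 37.2% of those of the protein-coding genes tested and in 31.5% of all. These matches are descriptions of letters in a window and say nothing of binding.

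Endothelial genes were many times higher in bound than in input. All 30 pan-endothelial genes were called higher, meaning an adjusted p under 0.05 in edgeR's quasi-likelihood test and at least a 2-fold change, against 8.35% of the 18226 genes tested, and their median log2 fold change was 3.76 against 0.00 for all genes. Each count of called genes below is to be read against these shares of all genes tested: 8.35% higher and 7.23% lower in WT choroid plexus, 7.45% higher and 4.25% lower in WT cortex, 9.18% higher and 8.83% lower in stabilized choroid plexus, and 6.01% larger and 5.94% smaller for the difference of choroid plexus from cortex. Values of CPM, from here on with TMM normalization, are given first for input replicates 1 and 2 and then for bound replicates 1 and 2. Pecam1, a junctional adhesion molecule of ECs (chr11:106654217-106750628, GRCm38), stood at 78.3 and 85.1 in input and 291 and 375 in bound. Its log2 fold change was 2.03 ± 0.31, the smallest of the 30 (edgeR adjusted p = 0.00054). Values after ± are the SE of the fit over 16 libraries, with n = 2 libraries a group, here and below unless another fit is named. Cdh5, which encodes VE-cadherin of the adherens junctions of ECs, rose from 22.7 and 19.6 to 319 and 405, by 4.10 ± 0.37 (edgeR adjusted p = 1.6e-05).

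**Figure D1:**
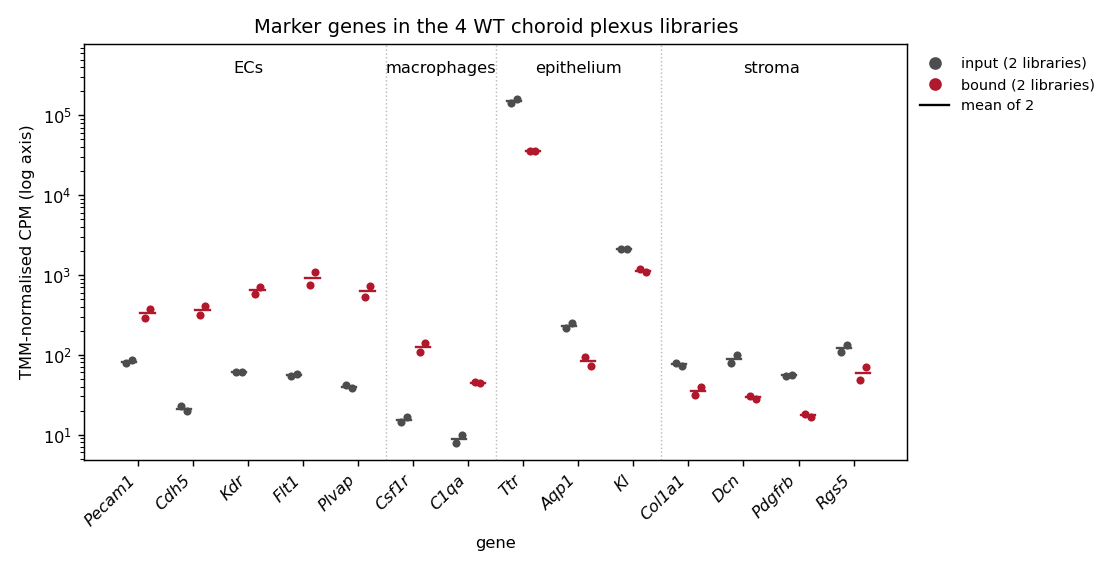
TMM-normalised CPM (log axis) of 14 marker genes in each of the 4 WT choroid plexus libraries, with input in grey, bound in red and a bar at the mean of the 2 libraries. The 5 EC genes and the 2 macrophage genes stood higher in both bound libraries than in either input library, and the 3 epithelial and 4 stromal genes stood lower.

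In none of the 30 genes did the 2 groups of libraries overlap, whereas over all genes 29.7% lay above input without overlap. Erg, an ETS transcription factor of ECs, had the largest fitted change, but its input levels of 0 and 0.119 CPM lay under the level of 3 counts. Next came Myct1, a membrane protein of ECs, at 0.439 and 0.713 in input and 12.9 and 18.0 in bound (4.70 ± 1.44), and Bmx, a tyrosine kinase of arterial ECs, at 0.146 and 0.475 in input and 9.15 and 8.15 in bound (4.70 ± 0.67). The lower input value of Bmx lay under the level of 3 counts, so its place in this order is uncertain. Without either bound replicate or either input replicate, the calls of Erg (log2 fold change 5.73 to 9.33, adjusted p 0.057 to 0.19) and Myct1 (log2 fold change 4.39 to 5.09, adjusted p 0.065 to 0.21) were lost. With 1 of these libraries left out at a time, 26 to 28 of the 30 genes were called higher. Summed over the list the level was 420 to 422 CPM in input and 3851 to 5462 in bound. In rescaled TPM the 30 genes took 0.0239 to 0.0267% of the total in input and 0.307 to 0.398% in bound, so that even in bound the summed share of these transcripts stayed under 1%. Emcn, a sialomucin of permeable and venous ECs, rose by 2.67 ± 0.39 (22.3 and 24.8 to 114 and 186), and Egfl7, a protein secreted by ECs, rose by 2.91 ± 0.30 (8.35 and 6.18 to 44.4 and 64.7).

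All 5 VEGF receptors and co-receptors were called higher (median 3.41), of which Kdr, Flt1 and Flt4 are also members of the pan-endothelial list. Kdr, the main signaling receptor for VEGF-A (chr5:75932827-75978458), stood at 60.9 and 60.3 in input and 573 and 712 in bound, a log2 fold change of 3.41 ± 0.25 (edgeR adjusted p = 5.1e-06). Flt1, a receptor that binds VEGF-A with high affinity, went from 54.0 and 56.9 to 747 and 1073 (4.04 ± 0.38). Flt4, the VEGF-C receptor best known from lymphatic vessels and also found in fenestrated capillaries, went from 3.81 and 4.52 to 66.2 and 123 (4.5 ± 0.40). The co-receptors rose too, Nrp1 by 2.31 ± 0.27 and Nrp2 by 1.2 ± 0.26. Leaving out input replicate 1 ended the call of Nrp2 (log2 fold change 1.15, adjusted p 0.056).

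Of the 5 VEGF ligands none was called higher and 1, Vegfb, was called lower, from 73.3 and 69.5 to 17.7 and 15.7 (-2.10 ± 0.23). Vegfa, the ligand that keeps fenestrated capillaries open and is made by the epithelium, stood at 86.5 and 88.1 in input and 150 and 139 in bound. That difference of 0.73 ± 0.23 passed the threshold on p (edgeR adjusted p = 0.044) but not the 2-fold rule, whereas with library size in place of TMM Vegfa was called higher (1.21 ± 0.22, edgeR adjusted p = 0.0017). Per length, Vegfa was the highest of the ligands in both fractions, at 97.7 rescaled TPM in input and 225 in bound. Vegfc, Vegfd and Pgf were low, and none of the 3 was called. Vegfc stood at 3.37 and 4.64 in input and 11.0 and 5.80 in bound, Vegfd at 0.732 and 0.832 in input and 0 and 3.46 in bound, and Pgf at 3.22 and 2.02 in input and 0 and 3.09 in bound.

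Of 12 receptors for angiopoietins, apelin, adrenomedullin, endothelin, PDGF and CXCL12, 6 were called higher and 2 lower, against 8.35% and 7.23% of all genes. With library size in place of TMM 6 were called higher and none lower. Tek and Tie1, the receptor pair of the angiopoietin pathway, rose by 4.21 ± 0.36 and 3.74 ± 0.32. Aplnr, the apelin receptor, rose by 5.00 ± 1.27 from 0.293 and 0.119 to 3.13 and 10.4, with both input values under the level of 3 counts. Calcrl and Ramp2, which together make the adrenomedullin receptor, rose by 2.44 ± 0.32 and 1.49 ± 0.45, and Ramp3 by 3.05 ± 0.87. The 2 that fell were the PDGF receptors of fibroblasts and mural cells, Pdgfra and Pdgfrb. Ednra, an endothelin receptor of mural cells, stood at 1.90 and 4.52 in input and 0 and 0.617 in bound and was not called. The calls of Aplnr (log2 fold change 3.84 to 5.70, adjusted p 0.076 to 0.13), Ramp2 (log2 fold change 0.97 to 1.73, adjusted p 0.086 to 0.28), Ramp3 (log2 fold change 2.56 to 3.59, adjusted p 0.086 to 0.19) and Pdgfrb (log2 fold change -1.71 to -1.65, adjusted p 0.067 to 0.079) were lost without bound replicate 2 or either input replicate. Among 10 ligands of these receptors 2 rose, against 8.35% of all genes, Pdgfb, whose regulatory sequences drive the Cre (28.1 and 19.5 to 82.0 and 95.2, 1.90 ± 0.33), and Cxcl12 (43.2 and 49.8 to 119 and 110, 1.3 ± 0.26). Edn1, endothelin, stood at 0.586 and 1.55 in input and 6.5 and 5.80 in bound (2.48 ± 0.89, edgeR adjusted p = 0.068). Adm, adrenomedullin, at 4.83 and 4.4 in input and 0.482 and 0.123 in bound, and Angpt1, at 8.64 and 8.32 in input and 3.01 and 2.59 in bound, were lowest in the list and were not called. In a fit of the 4 libraries alone 3 of 9 ligands were called higher and 3 lower, and with DESeq2 3 of 10 higher and 2 lower.

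In the BMP and TGF-beta family, Acvrl1 and Eng, the receptor and co-receptor for BMP9 in ECs, rose by 3.10 ± 0.37 and 2.74 ± 0.35. They were the 2 of 11 receptors called higher, against 8.35% of all genes, and with library size in place of TMM 5 were, while Bmpr1a fell from 80.2 and 99.0 to 36.0 and 22.1 (-1.63 ± 0.38). Without bound replicate 2 or input replicate 2, the call of Bmpr1a (log2 fold change -1.48 to -1.37, adjusted p 0.06) was lost. With an offset for effective length none of the 11 receptors was called lower. Bmpr1b, a related receptor, stood at 5.71 and 7.01 in input and 4.09 and 1.23 in bound. Of 10 ligands Tgfb1 alone was called, a share near the 8.35% of all genes, from 4.10 and 3.80 to 15.0 and 30.7 (2.53 ± 0.38), a call that was lost with an offset for effective length (edgeR adjusted p = 0.064). Bmp6, at 196 and 216 in input and 152 and 128 in bound, and Bmp7, at 96.6 and 109 in input and 58.0 and 61.8 in bound, were not called. Nor were Bmp2 (4.83 and 3.57 in input, 3.37 and 7.04 in bound), Bmp4 (22.4 and 27.2 in input, 12.6 and 8.52 in bound) and Inhba (1.46 and 0.475 in input, 0.482 and 0 in bound).

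Of 25 endothelial transcription factors tested, 15 were called higher, against 8.35% of all genes, and none lower, with a median of 2.08. The 3 SOXF factors, which act in arterial and general EC identity, rose together: Sox18 from 2.05 and 3.57 to 40.2 and 72.8 (4.31 ± 0.39), Sox17 by 4.00 ± 0.94 and Sox7 by 3.44 ± 0.53. Leaving out bound replicate 2 or either input replicate ended the call of Sox17 (log2 fold change 3.12 to 4.4, adjusted p 0.056 to 0.074). The flow-responsive factors Klf2 and Klf4 rose by 3.27 ± 0.68 and 3.39 ± 0.56. Among ETS factors, Fli1 rose by 2.69 ± 0.43 and Ets1 by 2.05 ± 0.28, whereas Ets2 (18.0 and 13.5 in input, 19.0 and 33.1 in bound) was not called. Meox1, a homeobox factor, rose by 3.22 ± 0.58, from 3.07 and 1.55 to 19.6 and 23.3. The forkhead factors Foxc1 (-0.02 ± 0.35), Foxc2 (-0.27 ± 0.95) and Foxo1 (0.26 ± 0.20) were not called, nor was Nr2f2, a factor of venous ECs, which had the lowest value of the list (-0.55 ± 0.20).

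**Figure D2:**
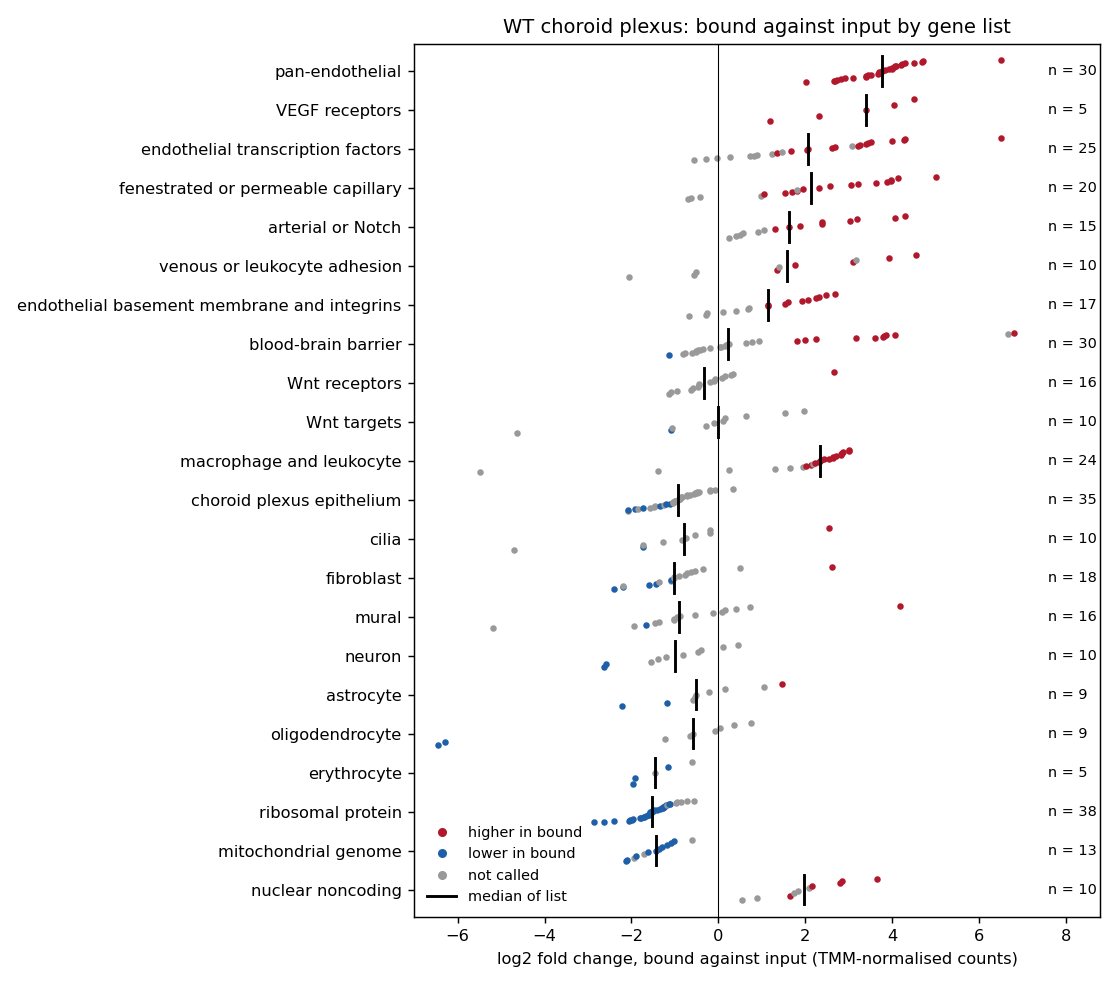
Log2 fold change of bound against input for every tested member of 22 gene lists, 1 point a gene, red where called higher, blue where called lower and grey where not called, with a black bar at the median of each list. The pan-endothelial list lies wholly to the right with a median of 3.76, the macrophage list mostly to the right with a median of 2.35, and the epithelial, fibroblast and mural lists have medians between -1.02 and -0.91.

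Genes linked to fenestrated or permeable capillaries were higher in bound. Of 20 genes 15 were called higher and none lower (median 2.13). Plvap, which forms the diaphragms of fenestrae and caveolae (chr8:71497765-71511752), stood at 41.4 and 38.3 in input and 528 and 730 in bound, a log2 fold change of 3.98 ± 0.66 (edgeR adjusted p = 0.00098). Gpihbp1, which carries lipoprotein lipase to the capillary lumen, rose from 3.95 and 2.85 to 61.0 and 58.4, and Esm1, a proteoglycan of VEGF-stimulated ECs, from 4.98 and 4.04 to 48.2 and 63.2. Igfbp3, an insulin-like growth factor binding protein, rose by 3.98 ± 0.24 and Rgcc, a gene of capillary ECs, by 3.21 ± 0.39. Of the caveolar genes, Cav1 rose by 3.05 ± 0.28 and Cav2 by 1.95 ± 0.28, and Cavin1, at 102 and 109 in input and 163 and 254 in bound, fell just short of the 2-fold rule (0.99 ± 0.27). Aplnr, given above, had the largest fitted change of the list. Lpl, the lipase itself (26.9 and 36.6 in input, 18.8 and 28.4 in bound), Igfbp5 (143 and 151 in input, 86.8 and 102 in bound), Fabp4 (1.32 and 0.475 in input, 0.482 and 0.617 in bound) and Cd36 (0.878 and 1.78 in input, 3.49 and 6.05 in bound) were not called.

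The difference from cortex passed the test for 8 of these 20 genes. In WT cortex 10 of these 20 genes were called higher, where the background was 7.45% of genes, with a median of 1.22. In the test of the difference between the tissues (bound over input in choroid plexus minus bound over input in cortex), 6 of the 20 were larger in choroid plexus, where the background was 6.01%, and 2 were smaller, where it was 5.94%. For Plvap the difference was 3.19 ± 0.92 (edgeR adjusted p = 0.038), for Esm1 4.42 ± 0.86, for Igfbp3 2.14 ± 0.31 and for Rgcc 1.97 ± 0.52. The lipid phosphatases Plpp3 and Plpp1 completed the 6, with differences of 2.75 ± 0.35 and 1.73 ± 0.31. The smaller ones were Cavin2 (-2.24 ± 0.41) and Cavin1 (-2.95 ± 0.39). The call on the difference from cortex of Plvap (adjusted p 0.072 to 0.15) was lost without either bound replicate, either input replicate, cortex bound replicate 1 or either cortex input replicate. Without cortex input replicate 2, the call on the difference from cortex of Esm1 (adjusted p 0.081) and Plpp1 (adjusted p 0.066) was lost. Leaving out bound replicate 2, input replicate 1, cortex bound replicate 2 or either cortex input replicate ended the call on the difference from cortex of Rgcc (adjusted p 0.1 to 0.3). For Gpihbp1 no difference is given, since the fit set its cortex level at 0.

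Genes of the BBB divided. Of 30 genes 10 were called higher in bound choroid plexus and 1 lower, with a median of 0.23, whereas 27 of the 30 were called higher in WT cortex, with a median of 3.31. The difference between tissues was smaller in choroid plexus for 18 of the 30, against 5.94% of all genes, and larger for none, with a median of -1.76. Other EC lists leaned the same way: of the 30 pan-endothelial genes 8 were smaller and 1 larger (median -0.88), and of the 25 transcription factors 7 were smaller and 1 larger (median -1.23). Whether the BBB list differed from these was not tested. The WT cortex bound libraries differed from each other. Over the BBB list replicates 1 and 2 summed to 7931 and 4373 CPM, and over the pan-endothelial list to 4530 and 2229. Slc2a1, the glucose transporter of barrier ECs (chr4:119108711-119137983), stood at 69.7 and 75.5 in input and 98.1 and 151 in bound. Its log2 fold change of 0.78 ± 0.35 did not pass the test (edgeR adjusted p = 0.14), and it lay 3.39 ± 0.50 under that in cortex (edgeR adjusted p = 0.00091). Mfsd2a, a lipid transporter that restrains transcytosis, stood at 1.76 and 1.19 in input and 1.81 and 1.48 in bound. Lsr, a protein of tricellular junctions, stood at 33.1 and 33.3 in input and 30.9 and 37.3 in bound, 4.76 ± 0.45 under its enrichment in cortex.

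Several transporters and junction genes that mark cortical ECs are also made by the choroid plexus epithelium, and their input levels were high. Slco1c1, a thyroid hormone transporter, stood at 356 and 382 in input and 213 and 223 in bound. Ocln, a tight junction protein, was the 1 gene of the list called lower, from 116 and 126 to 61.9 and 48.4 (-1.14 ± 0.29). The call of Ocln (log2 fold change -1.2 to -1.03, adjusted p 0.052 to 0.11) was lost without bound replicate 2 or either input replicate. Slc22a8, an organic anion transporter, at 32.4 and 37.4 in input and 30.3 and 24.3 in bound, was not called. For each of these 3 genes the difference from cortex passed the test, at -4.17 ± 0.36 for Slco1c1, -5.12 ± 0.44 for Ocln and -3.79 ± 0.43 for Slc22a8. How much of a bound level comes from epithelial RNA carried along was not tested.

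The BBB genes that did rise in choroid plexus included some of the best known. Cldn5, the main claudin of brain ECs, rose from 1.46 and 1.55 to 19.3 and 23.3 (3.81 ± 0.30), and its rise was 1.76 ± 0.41 smaller than in cortex. Without either input replicate, the call on the difference from cortex of Cldn5 (adjusted p 0.053 to 0.089) was lost. Abcb1a, the efflux pump P-glycoprotein, rose from 4.54 and 7.61 to 67.7 and 101 (3.78 ± 0.39), and Abcg2, a further efflux pump, from 12.3 and 13.0 to 48.5 and 52.0 (1.99 ± 0.27). Ly6c1, a surface protein of brain ECs, rose by 3.61 ± 0.34 and Car4, a carbonic anhydrase on the surface of capillaries, by 3.86 ± 0.41. Slc35f2 had 0 counts in both input libraries and 1.69 and 0.741 CPM in bound, at least 3.05-fold higher when input is set at the level of 3 counts per library. Pglyrp1, a peptidoglycan recognition protein, also had 0 in input but stood at 0.12 and 2.10 in bound and was not called. Cgnl1, a junctional protein that the epithelium makes too, rose from 780 and 737 to 3575 and 3632.

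**Figure D3:**
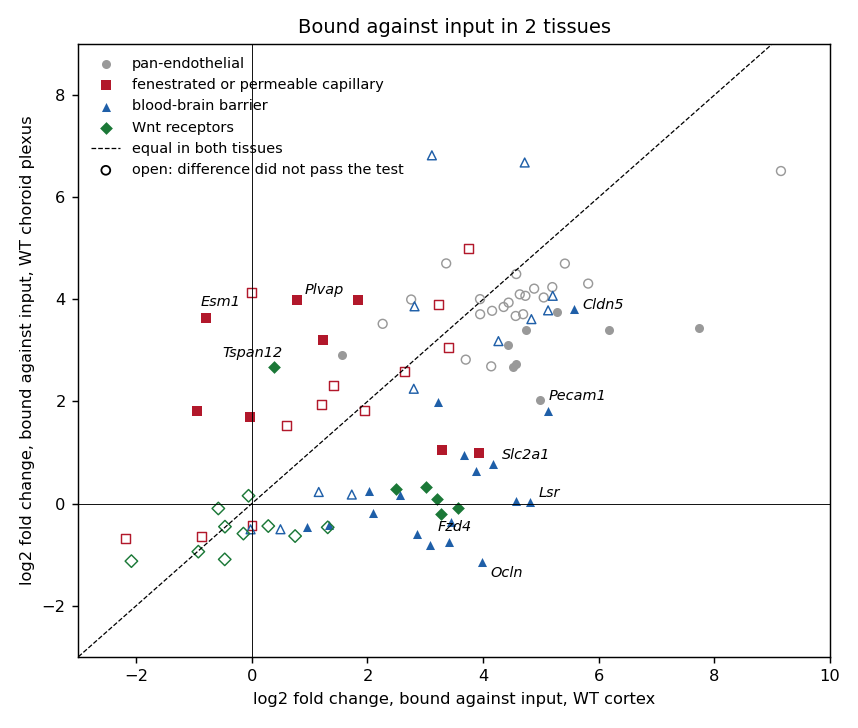
Log2 fold change of bound against input in WT choroid plexus (vertical) and WT cortex (horizontal) for members of 4 gene lists, 1 point a gene, filled where the difference between tissues passed the test, with the dashed line at equal values. Of the 30 BBB genes 18 lie below the line and pass the test, and the 5 Wnt receptor genes that do so lie between -0.20 and 0.33 in choroid plexus.

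In beta-catenin signaling, Fzd4 and 4 other receptors had a smaller bound over input ratio than in cortex. That ratio depends on input, where the list below summed to 1058.5 to 1120 CPM in choroid plexus and 515 to 558 in WT cortex. In bound the sums were 869 to 995 CPM in choroid plexus and 629 to 726 in WT cortex. A smaller ratio is thus not a lower level in bound. Of 16 Wnt receptors and co-receptors 1 was called higher (6.25%, against 8.35% of all genes) and none lower. That gene was Tspan12, a co-activator of Fzd4, which rose from 1.90 and 2.97 to 12.8 and 18.6 (2.67 ± 0.42) and was 2.29 ± 0.55 above its value in cortex. Leaving out bound replicate 2, input replicate 1, cortex bound replicate 2 or either cortex input replicate ended the call on the difference from cortex of Tspan12 (adjusted p 0.084 to 0.12). Fzd4, the receptor for Norrin in brain and retina ECs, stood at 231 and 256 in input and 231 and 286 in bound, 3.12 ± 0.36 under its enrichment in cortex. Reck and Adgra2, which together with Fzd4 relay Wnt7 signals in brain ECs, had log2 fold changes of -0.20 ± 0.25 and 0.33 ± 0.36, and these were 3.47 ± 0.37 and 2.68 ± 0.52 under cortex. Lrp5, a co-receptor (82.9 and 89.6 in input, 91.8 and 118 in bound), and Fzd6 (30.6 and 34.1 in input, 26.0 and 35.3 in bound) were 2.21 ± 0.41 and 3.64 ± 0.34 under cortex, so that 5 of the 16 receptors were smaller than in cortex and 1 larger, against 5.94% and 6.01% of all genes. The lowest values in the list were those of Fzd2 (-1.13 ± 0.68) and Fzd9 (-1.09 ± 1.31), which were not called.

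None of 10 Wnt target genes was called higher and 1, Tnfrsf19, was called lower (55.8 and 49.7 to 30.5 and 19.0), while 5 were called higher in WT cortex. With DESeq2, with no filter on low counts, with a replicate block or without bound replicate 1, 1 of the 10 was called higher. The call of Tnfrsf19 (log2 fold change -1.01 to -0.85, adjusted p 0.078 to 0.1) was lost without bound replicate 2 or input replicate 1. Axin2, a target in most tissues, stood at 59.4 and 56.8 in input and 63.1 and 45.8 in bound. Lef1, a transcription factor of the pathway, stood at 36.7 and 30.0 in input and 47.2 and 27.3 in bound, 2.41 ± 0.44 under its enrichment in cortex. Apcdd1, at 0.439 and 1.55 in input and 1.2 and 4.81 in bound, did not pass the test (1.53 ± 0.68, edgeR adjusted p = 0.14). Lgr5, at 0 and 0.594 in input and 0.12 and 2.35 in bound, and Notum, at 0.146 and 0.357 in input and 0 in both bound libraries, were not called either. Of 17 Wnt and R-spondin ligands tested none was called, and those that act on brain ECs were at or near the level of 3 counts: Wnt7a and Wnt7b had 0 counts in both bound libraries and Ndp, which encodes Norrin, had 0 in bound and 0.146 and 0.119 CPM in input. Of 10 secreted inhibitors none was called lower, although their median was -1.48, 9 of the 10 had a negative log2 fold change and 7 lay below input without overlap, where the background was 32.4% of genes. With no filter on low counts 4 of the 10 were called lower, in a fit of the 4 libraries alone 3 of the 5 tested and with a replicate block 2, with none higher. Among the 10 only Dkk2 was called higher, from 0.293 and 0.238 to 0.963 and 6.79, with both input values under the level of 3 counts. Without bound replicate 2 or either input replicate, the call of Dkk2 (log2 fold change 1.77 to 3.96, adjusted p 0.15 to 0.38) was lost. The inhibitor Sostdc1 stood at 1124 and 1083 in input and 430 and 311 in bound, and Wif1 at 0.439 and 0.594 in input and 0.843 and 0 in bound.

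Some genes of both the arterial and the venous lists were higher in bound. Of 15 arterial or Notch genes 9 were called higher and none lower (median 1.64), among them Sema3g (3.95 and 2.73 to 57.9 and 72.5), Dll4, a Notch ligand (1.17 and 1.78 to 26.8 and 23.3), and Notch4, a Notch receptor of ECs (7.32 and 6.77 to 58.5 and 56.8). Efnb2, the arterial ephrin, rose by 2.40 ± 0.35, a rise 2.26 ± 0.47 larger than in cortex, and Hey1, a Notch target, rose by 1.64 ± 0.35. The lowest in the list were Hey2 (0.25 ± 0.42) and Hes1 (0.42 ± 0.64), which were not called. Leaving out input replicate 1 ended the call of Hey1 (log2 fold change 1.44, adjusted p 0.072). The call on the difference from cortex of Efnb2 (adjusted p 0.058 to 0.06) was lost without bound replicate 2 or cortex input replicate 2. Of 10 venous or leukocyte adhesion genes 5 rose: Lrg1 (0.586 and 0.713 to 4.09 and 27.2), Tmem252 (0.293 and 0.832 to 6.86 and 11.1), Tgm2, a transglutaminase (10.1 and 8.91 to 63.3 and 99.2), Ephb4, the venous ephrin receptor (20.4 and 22.8 to 64.2 and 83.3) and Icam1, a leukocyte adhesion molecule (6.44 and 10.1 to 19.9 and 22.3). Without bound replicate 2 or either input replicate, the call of Lrg1 (log2 fold change 2.57 to 4.70, adjusted p 0.066 to 0.13) was lost. Leaving out input replicate 1 ended the call of Tmem252 (log2 fold change 3.41, adjusted p 0.083). The call of Ephb4 (log2 fold change 1.51 to 1.68, adjusted p 0.066) was lost without bound replicate 2 or input replicate 1. Without either bound replicate or input replicate 1, the call of Icam1 (log2 fold change 1.05 to 1.34, adjusted p 0.052 to 0.19) was lost. Vcam1, at 168 and 209 in input and 124 and 139 in bound, and Selp were not called. Of the 10 venous or leukocyte adhesion genes 7 had a positive and 3 a negative log2 fold change (median 1.59, lowest -2.05). Summed, they stood at 336 to 407 CPM in input and 393 to 467 in bound.

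Basement membrane and integrin genes were called higher for 10 of 17 and lower for none (median 1.14). Itga1, a collagen receptor subunit, rose by 2.69 ± 0.31 and Itga6, a laminin receptor subunit, by 1.6 ± 0.25. The collagen IV chains Col4a1 and Col4a2 rose by 2.06 ± 0.41 and 2.26 ± 0.27, from 89.3 and 87.4 to 307 and 430 and from 60.2 and 59.4 to 259 and 314. Lama4, the laminin chain of vessels, rose by 2.47 ± 0.41, while Lamb1 stood at 332 and 378 in input and 399 and 360 in bound. Col18a1 (143 and 145 in input, 95.7 and 84.8 in bound) and Sparc (394 and 449 in input, 302 and 386 in bound) had the lowest values and were not called. In the list of 22 tight and adherens junction genes 6 rose and 1, Ocln, fell, against 8.35% and 7.23% of all genes. With library size in place of TMM 10 were called higher and none lower, and with no filter on low counts 7 higher and 4 lower. Besides Cdh5, Cldn5 and Cgnl1, Esam, an adhesion molecule of EC junctions, rose by 3.67 ± 0.35, Jam2 by 1.76 ± 0.28 and Tjp1, which encodes ZO-1, by 1.28 ± 0.19. Cldn3, an epithelial claudin (18.3 and 17.4 in input, 5.06 and 4.81 in bound), and Cldn11 (14.1 and 17.7 in input, 1.2 and 12.3 in bound) were not called. The junction protein F11r, at 36.2 and 46.9 in input and 31.9 and 41.7 in bound, was 4.65 ± 0.39 under its enrichment in cortex.

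The epithelium went the other way, by less than the ECs rose. Of 35 epithelial genes 6 were called lower and none higher, where the background was 7.23% lower, and the median log2 fold change was -0.92. In 33 of the 35 both bound libraries lay below both input libraries, against 32.4% of all genes. Ttr, the thyroid hormone carrier that is the most abundant epithelial messenger, stood at 142668 and 158909 in input and 35319 and 35968 in bound. That difference of -2.08 ± 1.0 did not pass the test in the fit over 16 libraries (edgeR adjusted p = 0.17) and passed it in a fit of the 4 libraries alone (-2.00 ± 0.08, edgeR adjusted p = 6.8e-05). Aqp1, the water channel of the apical membrane, stood at 213 and 251 in input and 93.7 and 71.7 in bound (-1.49 ± 0.92), and Kl, which encodes klotho (chr5:150952607-150993817), at 2101 and 2134 in input and 1178 and 1076 in bound (-0.91 ± 0.41).

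Those that passed were Msx1, a homeobox factor (229 and 209 to 107 and 94.6, -1.12 ± 0.19), Steap1, a metalloreductase (60.0 and 70.2 to 25.3 and 31.5), Car2, a carbonic anhydrase (277 and 305 to 131 and 99.7, -1.33 ± 0.23), Calml4 (344 and 311 to 101 and 96.8), Wfdc2 (68.7 and 68.2 to 17.5 and 18.5) and Cox8b (50.8 and 49.7 to 16.7 and 7.04, -2.08 ± 0.46). Of the ion transporters, Slc12a2, the sodium, potassium and chloride cotransporter, stood at 928 and 1107 in input and 700 and 737 in bound, and Slc4a10, a bicarbonate transporter, at 1084 and 1188 in input and 1033 and 951 in bound, and neither was called. The highest values in the list were those of Cdh1, E-cadherin (0.33 ± 0.82), and Tmem72 (-0.08 ± 0.18), which were not called. Leaving out either bound replicate or input replicate 1 ended the call of Calml4 (log2 fold change -1.85 to -1.67, adjusted p 0.06 to 0.077). The call of Steap1 (log2 fold change -1.32 to -1.09, adjusted p 0.067 to 0.14) was lost without bound replicate 1 or either input replicate. Without either bound replicate or either input replicate, the call of Wfdc2 (log2 fold change -2.03 to -1.93, adjusted p 0.095 to 0.11) was lost. In a fit of the 4 libraries alone 12 of the 35 were called lower, with a replicate block also 12, in a fit of the 8 choroid plexus libraries 11 and with no filter on low counts 18. With library size in place of TMM 1 was called lower and the median was -0.43, and on raw TPM the median was 0.25, against 0.53 for all genes on that scale.

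Epithelial RNA stayed abundant in bound. The 35 genes summed to 25.5 to 25.9% of rescaled TPM in input and 10.7% in both bound libraries, and Ttr alone averaged 226477 rescaled TPM in input and 83015 in bound. In the WT cortex libraries the same list took 0.342 to 0.362% in input and 0.143 to 0.192% in bound. The cilia list, which marks multiciliated cells of the epithelium and ependyma, had a median of -0.79 with 1 of 10 genes called lower (Rsph1, 134 and 129 to 45.6 and 33.1) and 1 called higher (Dnah5, 0.878 and 1.31 to 7.46 and 5.55), against 7.23% and 8.35% of all genes. With no filter on low counts, in the 4-library fit and in the 8-library fit 3 were called lower. Leaving out either bound replicate or either input replicate ended the calls of Rsph1 (log2 fold change -2.08 to -1.58, adjusted p 0.066 to 0.16) and Dnah5 (log2 fold change 2.24 to 2.86, adjusted p 0.051 to 0.19). Tmem212 had 0 in both bound libraries and was not called. Foxj1, the factor that directs the formation of motile cilia, stood at 116 and 107 in input and 74.3 and 51.0 in bound.

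Some genes of the stroma were lower in bound too. Of 18 fibroblast genes 5 were called lower and 1 higher (median -1.02), against backgrounds of 7.23% and 8.35%. With library size in place of TMM 1 was called lower and 1 higher (median -0.53), and with an offset for effective length 3 lower. The sum over the list changed direction with the scale, as it was 3949 to 4631 CPM in input and 2616 to 2663 in bound, but in rescaled TPM 0.241 to 0.252% of the total in input and 0.278 to 0.283% in bound. Dcn, the proteoglycan decorin, fell from 78.8 and 98.3 to 30.8 and 27.7 (-1.6 ± 0.52), Lum, the proteoglycan lumican, from 30.3 and 33.8 to 6.86 and 5.18, and Ogn, osteoglycin, from 63.2 and 72.7 to 28.2 and 22.1. Serping1, a complement inhibitor, fell by 2.20 and Pdgfra by 1.08 on the log2 scale. Col1a1, a collagen I chain, stood at 79.6 and 71.4 in input and 31.7 and 39.4 in bound (-1.09 ± 0.49, edgeR adjusted p = 0.15). The exception was Fn1, fibronectin, which ECs also make and which rose from 23.3 and 27.8 to 142 and 174. The calls of Dcn (log2 fold change -1.76 to -1.44, adjusted p 0.093 to 0.19) and Lum (log2 fold change -2.71 to -2.28, adjusted p 0.097 to 0.16) were lost without either bound replicate or either input replicate. Without bound replicate 2 or input replicate 2, the call of Ogn (log2 fold change -1.34 to -1.33, adjusted p 0.064 to 0.072) was lost. Leaving out bound replicate 2 ended the call of Pdgfra (log2 fold change -0.97, adjusted p 0.035). Igf2, the growth factor made by choroid plexus stroma and epithelium, stood at 3835 and 3061 in input and 2141 and 2015 in bound.

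Of 16 mural genes 1 was called lower (6.25%) and 1 higher, against 7.23% and 8.35% of all genes, with a median of -0.91, and their summed share of rescaled TPM overlapped between input (0.0162 to 0.0165%) and bound (0.0133 to 0.0170%). With a replicate block 3 were called lower. Pdgfrb, the PDGF receptor of pericytes, fell from 54.0 and 56.5 to 18.3 and 16.4 (-1.67 ± 0.45). Rgs5, a pericyte marker, stood at 109 and 131 in input and 48.6 and 69.6 in bound (-1.02 ± 0.38, edgeR adjusted p = 0.079). The channel gene Kcnj8 stood at 4.39 and 3.09 in input and 1.32 and 0.617 in bound, and Cspg4, the NG2 proteoglycan, at 5.71 and 5.11 in input and 7.10 and 11.0 in bound. Higd1b had 0 in both bound libraries, with both input values near the level of 3 counts. The contractile genes Acta2 and Tagln stood at 6.0 and 5.11 and at 4.54 and 4.52 in input and at 6.02 and 5.68 and at 4.94 and 5.18 in bound. Myh11, smooth muscle myosin, rose from 4.54 and 2.97 to 38.9 and 97.3 (4.19 ± 0.58).

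Macrophage and leukocyte genes rose with the EC genes. Of 24 genes 17 were called higher, against 8.35% of all genes, and none lower, with a median of 2.35. With 1 WT choroid plexus library left out at a time, 13 to 17 of the 24 were called higher. The list summed to 184 to 187 CPM in input and 874 to 1261 in bound. Csf1r, the receptor that macrophages need for survival, stood at 14.2 and 16.5 in input and 107 and 142 in bound (3.02 ± 0.23). C1qa, a complement component, stood at 7.91 and 9.75 in input and 45.3 and 43.8 in bound (2.33 ± 0.26). Mrc1 and Cd163, markers of border-associated macrophages, rose by 2.83 ± 0.59 and 2.71 ± 0.57, and Lyz2 and Cd74 by 2.54 ± 0.32 and 2.15 ± 0.40. C1qb, a partner of C1qa, rose by 3.02 ± 0.31. The 2 genes with negative values, Itgax (0.732 and 0.238 in input, 0 in both bound libraries) and Ccr2 (0.732 and 0.594 in input, 0.12 and 0.370 in bound), mark other leukocytes and were not called. The call of Cd163 (log2 fold change 2.21 to 2.22, adjusted p 0.05 to 0.083) was lost without bound replicate 2 or input replicate 1. Of the same list 15 were called higher in WT cortex (median 3.57), where their sum in bound was 3509 to 4659 CPM. How far macrophage RNA adds to any EC result was not tested.

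Calls among markers of blood and brain cells depended on the libraries in the fit. In a fit of the 4 libraries alone none of the 10 neuronal, 9 astrocyte and 6 oligodendrocyte genes tested was called lower, and in a fit of the 8 choroid plexus libraries 1, 1 and 0 were. With a replicate block the neuronal count was 5. In the fit of all 16 libraries, used for the values that follow, 2 genes of each list were called lower. Neuronal genes summed to 102 to 332 CPM in input and 62.7 to 121 in bound, and the sums in WT cortex input were 6584 to 6727. Input replicate 1 held more of them than input replicate 2, for example Snap25, a synaptic protein, at 103 and 27.9. The 2 of 10 neuronal genes called lower, against 7.23% of all genes, were Nrgn (78.0 and 17.8 to 12.0 and 3.21) and Gad2 (4.98 and 3.92 to 0.12 and 1.36), while Stmn2 (0.46 ± 0.56) and Nefl (0.10 ± 0.94) were not called. Without bound replicate 2 or input replicate 1, the call of Nrgn (log2 fold change -2.06 to -1.23, adjusted p 0.22 to 0.46) was lost. Leaving out bound replicate 1 or either input replicate ended the call of Gad2 (log2 fold change -2.76 to -1.79, adjusted p 0.093 to 0.19). Of 9 astrocyte genes 2 were called lower and 1 higher (2 higher in the 4-library fit), where 7.23% and 8.35% of all genes were. With an offset for effective length none of the 9 was called, and the median was 0.09 in place of -0.51. The gene called higher was the gap junction gene Gja1 (12.7 and 13.4 to 34.8 and 37.5), which vascular and leptomeningeal cells also make. The 2 that fell were Aldoc (27.7 and 15.7 to 7.94 and 1.36) and Slc1a3 (22.8 and 14.7 to 9.03 and 7.41), and Gfap (6.30 and 8.08 in input, 17.1 and 12.7 in bound) was not called. Of 9 oligodendrocyte genes Olig2 and Sox10 were called lower, with 0 in both bound libraries and at most 1.32 CPM in input. Both calls were absent from the fits without cortex libraries, in which 6 of the 9 genes were tested. The call of Aldoc (log2 fold change -1.76, adjusted p 0.093) was lost without input replicate 1. Without bound replicate 2 or input replicate 1, the call of Slc1a3 (log2 fold change -1.11 to -0.85, adjusted p 0.11 to 0.2) was lost. Of 5 erythrocyte genes 3 were called lower, against 7.23% of all genes, 4 in the 4-library fit and 1 with library size in place of TMM or without any 1 of the 4 libraries: Hbb-bs from 181 and 129 to 49.1 and 30.1, Hba-a1 from 63.4 and 46.2 to 13.7 and 15.1 and Hba-a2 from 92.1 and 69.4 to 33.1 and 39.4, the last 2 being near-identical copies. Alas2 was not called. Leaving out either bound replicate or either input replicate ended the calls of Hba-a1 (log2 fold change -2.15 to -1.69, adjusted p 0.058 to 0.15) and Hba-a2 (log2 fold change -1.36 to -0.95, adjusted p 0.063 to 0.22). None of the 4 platelet genes Gp1bb, Pf4, Gp9 and Itga2b was called.

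Over all genes tested, 1522 were called higher and 1317 lower. With library size in place of TMM the counts were 2559 and 473, without input replicate 1 they were 899 and 873, and without input replicate 2 they were 913 and 825. With a TPM of at least 10 in both bound libraries 567 transcripts met the rule for EC-enriched, 3.11% of those tested, and with a TPM of at least 10 in both input libraries 665 met the rule for depleted, 3.65%. Both counts depend on the scale. Library size in place of TMM gave 851 EC-enriched and fewer depleted, and rescaled TPM or a minimum of 1 TPM gave more of both (last section). Of the 665, 469 also lay below input without overlap in TPM, and 34 had a TPM in both bound libraries above that in both input libraries. At the edge of the TPM rule, Tnfaip2 was just inside at 10.0 TPM and Syne3 just outside at 9.98 in the lower bound library. Of the EC-enriched, 504 were protein-coding, 33 pseudogenes and 15 lincRNAs, and 37 belonged to one of the endothelial lists described here while 12 belonged to the macrophage list.

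The most abundant EC-enriched transcripts were not classical EC markers. Myh9, the heavy chain of non-muscle myosin IIA, had the highest rescaled TPM of the protein-coding ones in bound, 13185 against 441 in input, with 282 and 262 CPM in input and 5573 and 6027 in bound (4.41 ± 0.41). Syne2, a very long gene for a nuclear envelope protein, stood at 268 and 231 in input and 6432 and 7348 in bound (4.79 ± 0.56). Atrx, a chromatin remodeler, Rrbp1, a ribosome-binding protein of the endoplasmic reticulum, and Srrm1, a splicing factor, rose by 3.76 ± 0.37, 4.12 ± 0.23 and 3.13 ± 0.27. For each of these 5 the rise was larger than in cortex, by 1.70 ± 0.50 for Myh9, 2.52 ± 0.69 for Syne2, 2.80 ± 0.47 for Atrx, 1.97 ± 0.30 for Rrbp1 and 2.37 ± 0.36 for Srrm1. The call on the difference from cortex of Myh9 (adjusted p 0.1 to 0.2) was lost without either bound replicate, either input replicate, cortex bound replicate 1 or either cortex input replicate. Without either bound replicate, either input replicate or either cortex input replicate, the call on the difference from cortex of Syne2 (adjusted p 0.074 to 0.11) was lost. Among noncoding transcripts the lincRNA Gm26917 stood at 84.0 and 49.1 in input and 10712 and 6281 in bound.

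The largest fold changes belonged to predicted genes such as Gm26870 (1.46 and 3.33 to 963 and 929) and Gm10800 (1.61 and 3.33 to 548 and 446). Gm10719, Gm10721, Gm10801 and Gm21738 had under 0.6 CPM in each input library and 26.8 to 71.6 in bound. Gm10722, Gm11168 and Gm10715 had 0 counts in input, and with input set at the level of 3 counts per library they were at least 64.6-fold, 44.4-fold and 35.7-fold higher in bound. These predicted genes share sequence with near-identical copies among which reads can be split, so their single values are uncertain. Kap, an androgen-regulated gene best known from kidney, had 0 counts in input and 9.99 and 10.2 CPM in bound, at least 25.4-fold higher.

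Depleted transcripts with the highest input level were short noncoding and mitochondrial RNAs. Rn7s1, a signal recognition particle RNA, fell from 18365 and 18597 to 279 and 474 (-5.62 ± 0.35), Rn7sk, an RNA that restrains transcription elongation, from 4568 and 5348 to 413 and 436, and Rmrp, the RNA of an RNase, from 155 and 124 to 2.65 and 1.98. Rpph1, the RNA of RNase P, fell from 357 and 238 to 8.79 and 7.78, and Bc1, a noncoding RNA known from neurons, from 435 and 441 to 22.1 and 29.6. The mitochondrial transfer RNA mt-Tg fell from 587 and 344 to 1.2 and 0.741. The mitochondrial ribosomal RNAs mt-Rnr1 and mt-Rnr2 fell by 2.62 and 2.80 on the log2 scale, and 10 of 13 mitochondrial messengers were called lower (median -1.44), or 3 of 13 (median -0.94) with library size in place of TMM. The largest falls among them were those of mt-Co1 (-2.12 ± 0.20) and mt-Nd6 (-2.09 ± 0.34), and the smallest those of mt-Nd1 (-0.60 ± 0.21, not called) and mt-Nd5 (-1.03 ± 0.18). In cortex, where also 10 of the 13 were called lower against a background of 4.25%, the median was -1.14.

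Messengers of ribosomal proteins fell in WT choroid plexus on the TMM scale. Of 38 genes 32 were called lower and none higher, with a median of -1.53, against 7.23% of all genes lower. In WT cortex 3 were lower and 1 higher, against 4.25% and 7.45%, with a median of 0.11. With library size in place of TMM 17 of the 38 were called lower. In beta-catenin stabilized choroid plexus 10 of the 38 were called lower, against 8.83% of all genes, and none higher, with a median of -0.84. For 28 of the 38 the difference between the tissues passed the test and was smaller in choroid plexus, and for 1, Rpl10a, it was larger, against 5.94% and 6.01% of all genes. The lowest values in choroid plexus were those of Rpl27 (-2.86 ± 0.63) and Rps23 (-2.64 ± 0.31) and the highest those of Rpl10a (-0.57 ± 0.38, not called) and Rps3 (-0.71 ± 0.17, under the 2-fold rule). Rplp1 stood at 424 and 390 in input and 86.1 and 114 in bound (-2.02 ± 0.24), and Rpl13a, the most abundant per length, at 410 and 388 in input and 114 and 128 in bound. Nuclear noncoding RNAs behaved in the opposite way, with 5 of 10 called higher (median 1.97), or 8 with library size in place of TMM, and 8 of 10 larger than in cortex, against 6.01% of all genes: Neat1, the scaffold of paraspeckles, stood at 105 and 113 in input and 488 and 489 in bound, and Kcnq1ot1, an imprinted antisense RNA, at 30.0 and 22.7 in input and 319 and 344 in bound. Snhg11 rose by 2.86 ± 0.40, and the lowest of the list, Peg13 (0.55 ± 0.21) and Malat1 (0.90 ± 0.26), were not called. Per the study's methods Salmon was left to detect the library type, strand included, and the type it detected is not given in the sources used here, so antisense and overlapping genes are uncertain.

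Length moved with these changes. Among nuclear protein-coding genes the median log2 fold change was -0.62 for the 1806 genes with an effective length of up to 500 bases, -0.03 between 1000 and 2000 bases and 0.41 for the 1025 genes over 4000 bases. Of the shortest 22.9% were called lower and 4.71% higher, and of the longest 1.37% and 19.0%. WT cortex ran the other way, from -0.23 to -0.44. Within every length class the pan-endothelial genes were all called higher, with medians between 3.29 and 4.5, and with an offset for the effective length in each library 28 of the 30 were called and their median was 3.55. Other lists lost calls under the offset too: endothelial transcription factors went from 15 to 11 called higher, arterial or Notch genes from 9 to 6, venous genes from 5 to 3, basement membrane genes from 10 to 7 and BBB genes from 10 to 7. Over all genes 1053 were called higher, among them 60.9% of the 1522. Under that offset the epithelial median was -1.01 and the ribosomal protein median -1.70.

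**Figure D4:**
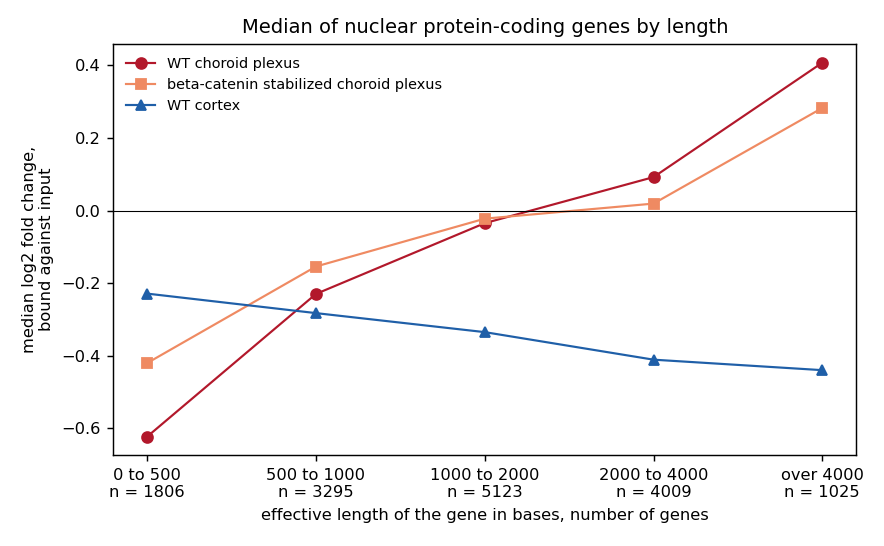
Median log2 fold change of bound against input for nuclear protein-coding genes in 5 classes of effective length, for WT choroid plexus (red circles), beta-catenin stabilized choroid plexus (orange squares) and WT cortex (blue triangles). In choroid plexus the medians climb with length, from -0.62 to 0.41 in WT, whereas in cortex they lie between -0.23 and -0.44.

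The classes of RNA shifted as well. Nuclear protein-coding transcripts held 53.6 to 55.3% of the estimated counts in input and 64.2 to 65.3% in bound, and mitochondrial ribosomal and transfer RNAs 10.6 to 11.0% and 2.20 to 2.38%. Transcripts annotated as retained introns held 2.41 to 2.65% in input and 5.52 to 6.13% in bound. For 293 of the 483 genes looked at, at least 2 transcripts held over 10% of the TPM of the gene in some library. Rpl22, the tagged protein's own gene, was lower in bound as a gene (108 and 115 to 42.5 and 41.7, -1.40 ± 0.28), but the protein-coding transcript Rpl22-201 took 1.84 and 3.37% of its TPM in input and 54.6 and 98.5% in bound, while the noncoding Rpl22-205 took 74.9 and 70.6% in input and 0 in both bound libraries. In Pecam1 the retained-intron transcript Pecam1-208 took 75.1 and 70.8% of the TPM in input and 8.02 and 7.06% in bound. Cxcl12-201 went from 7.59 and 6.67% to 67.4 and 43.3% of its gene. The files give no error for these shares, and the 4 libraries are the only measure of their spread.

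The beta-catenin stabilized choroid plexus gave a second set of libraries in which the same enrichment could be read. Of the 567 EC-enriched transcripts, 437 (77.1%) were also called higher there, where the background was 9.18%, and the fold change was positive for all 567. Of the 665 depleted, 422 (63.5%) were also called lower, where the background was 8.83%. These shares are not an independent replication, because the spread of each gene was estimated from all 16 RiboTag libraries together. A gene with a small spread is thus more easily called in both comparisons. The backgrounds in this paragraph cover all 18226 genes tested, whereas the EC-enriched and depleted transcripts also had to reach 10 TPM. A background matched for spread and level was not tested. In WT cortex 189 of the 567 (33.3%) were called higher and 17 lower, where the backgrounds were 7.45% and 4.25%. The pan-endothelial median in stabilized choroid plexus was 4.14 with 29 of 30 called higher. The BBB list there had 23 of 30 called higher and a median of 2.84, and the epithelial list 22 of 35 called lower and a median of -1.57. The difference between WT and stabilized choroid plexus was not tested here.

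The largest differences from cortex, among genes with at least 10 TPM in both bound libraries of choroid plexus (larger) or of cortex (smaller), lay in predicted genes and pseudogenes on the larger side (Gm10563, Gm48111, Gm10715, Gm10718 and Gm10722), with differences from 11.95 to 13.36 that rest on groups at or near 0 counts and are no measure of size. On the smaller side stood Chtf8, a clamp loader subunit (11.9 and 4.28 in input, 0 in both bound libraries), Gsg1l (4.68 and 1.31 in input, 0 in both bound libraries), the pseudogene Rps23-ps1, Ltc4s, leukotriene C4 synthase (83.9 and 75.7 in input, 24.1 and 31.7 in bound, a difference of -6.66), and Bst2, tetherin (14.9 and 14.5 in input, 6.62 and 8.64 in bound, a difference of -6.33).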

How the data were processed

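RNA of 16 RiboTag libraries was sequenced single-end after amplification with the Ovation Ultralow kit, and per the study's methods bound RNA was obtained from a postmitochondrial supernatant with an anti-HA antibody and protein G beads, with high-salt washes. The estimated counts and TPM per transcript in the deposited files were made by the authors with Salmon (version 0.10.2 in the submitters' processing notes) with its options against sequence, GC and positional bias switched on, against an Ensembl transcriptome of mm10/GRCm38. Gene sums were made here with the GENCODE M21 annotation, in which 130254 of 130740 transcripts were matched. The estimated counts were rounded to whole numbers. All 16 libraries were fitted together with edgeR 4.0.16 (R 4.3.3, TMM normalization, filterByExpr, quasi-likelihood test, 18226 genes, 8 residual degrees of freedom), with contrasts for WT choroid plexus, WT cortex, stabilized choroid plexus and the difference of the first 2. A call needed a Benjamini-Hochberg adjusted p under 0.05 over all genes tested and at least a 2-fold change. EC-enriched transcripts also needed 10 TPM in both bound libraries, and depleted ones 10 TPM in both input libraries.

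Genes named are 24 anchor genes, the 10 EC-enriched and the 10 depleted transcripts with the largest change and the 10 of each with the highest TPM (those not overlapping in TPM), the 5 in each direction with the largest difference from cortex, and members of 31 lists of 460 genes in all, at the least the 2 highest and the 2 lowest of each. Not each of the leading predicted genes and small RNAs is named. One gene of the BBB list that the rule names is not reported here. The members and lists were chosen with earlier results of these data known. Promoter sequences are from RefSeq (GRCm38.p6). On simulated counts for the choroid plexus contrast with 200 of 18226 genes changed, 9% of 2-fold and 61% of 4-fold changes were recovered, with 2 false calls. The changes were split evenly up and down and all other genes were equal in bound and input. The simulation thus says nothing of errors from normalization. Alternatives were DESeq2 1.42.0, other size factors, filters, TPM ratios, a length offset, fewer libraries and a replicate block.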

Additional observations from a re-analysis of the deposited data

Results flagged for a closer look

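Several genes had a bound over input ratio that differed between WT choroid plexus and WT cortex in edgeR's test of the difference itself. Values below are that difference on the log2 scale, choroid plexus minus cortex. They compare ratios of bound to input, so input levels enter them and they are not differences of bound levels.

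Among genes of permeable capillaries the difference was positive for Esm1 (4.42), Plvap (3.19), Plpp3 (2.75), Igfbp3 (2.14), Rgcc (1.97) and Plpp1 (1.73) and negative for the caveolar genes Cavin1 (-2.95) and Cavin2 (-2.24). Efnb2, the arterial ephrin, differed by 2.26. Among BBB and junction genes it was negative for Ocln (-5.12), Lsr (-4.76), F11r (-4.65), Slco1c1 (-4.17), Slc22a8 (-3.79), Slc2a1 (-3.39) and Cldn5 (-1.76). In the Wnt pathway it was negative for Fzd6 (-3.64), Reck (-3.47), Fzd4 (-3.12), Adgra2 (-2.68), Lef1 (-2.41) and Lrp5 (-2.21) and positive for Tspan12 (2.29).

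Among abundant transcripts of general function the difference was 2.80 for Atrx, 2.52 for Syne2, 2.37 for Srrm1, 1.97 for Rrbp1 and 1.70 for Myh9. The leukotriene synthase Ltc4s (-6.66) and the interferon-induced Bst2 (-6.33) had among the most negative differences. The predicted genes Gm10563 (13.36), Gm48111 (13.20), Gm10715 (12.80), Gm10718 (12.67) and Gm10722 (11.95) had the largest positive ones, with groups at or near 0 counts. Sex cannot be told apart from tissue in any of these differences.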

How the results depend on the processing

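Leaving out 1 WT choroid plexus library at a time gave 899 to 1257 genes higher, 825 to 1371 lower, 442 to 498 EC-enriched, 507 to 657 depleted and 364 to 386 EC-enriched shared with stabilized choroid plexus. Leaving out 1 stabilized choroid plexus library gave 340 to 393 shared. With the cortex libraries included, it gave 398 to 1075 genes larger and 626 to 2067 smaller than in cortex, the last without cortex bound replicate 2. List medians then ranged from 3.37 to 3.98 (pan-endothelial), 1.70 to 2.36 (permeable), 0.10 to 0.41 (BBB), 2.13 to 2.49 (macrophage) and -1.06 to -0.90 (epithelium).

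Library size in place of TMM gave 2559 genes higher and 473 lower (84.4% of calls higher, against 53.6%), 851 EC-enriched, 287 depleted, 708 shared and 1680 larger than in cortex. Medians were then 4.24 (pan-endothelial), 2.61 (permeable), 0.72 (BBB), 2.83 (macrophage) and -0.43 (epithelium). The sign turned for Wnt receptors (0.17), BMP and TGF-beta receptors (0.28) and the angiopoietin, apelin, PDGF and CXCL12 ligands (0.05). No filter gave 1978 lower and 2166 smaller than in cortex, and a length offset 331 larger. A minimum of 1 TPM gave 1291 EC-enriched, 1170 depleted and 946 shared, and rescaled TPM 1090 and 1119.

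Ratios of mean TPM with pseudocounts 1 and 0.1 gave medians of 3.26 and 4.35 (pan-endothelial), 2.69 and 3.09 (permeable) and 0.83 and 1.57 (BBB), 3.45 with 0.1 for macrophages, and turned the sign for epithelium (0.25 and 0.25), BMP and TGF-beta ligands (0.14 and 0.17) and receptors (0.58 and 1.0), Wnt receptors (0.68 and 0.89), astrocytes (0.81 and 1.32) and, with 0.1, oligodendrocytes (0.37). Rescaled TPM gave 0.95 (BBB), 2.88 (macrophage), -0.29 (epithelium), 0.48 (BMP and TGF-beta receptors), 0.35 (Wnt receptors) and 0.79 (astrocytes). The epithelial median was -0.83 in a fit of the 4 libraries alone. The cause of these shifts was not tested.

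With a replicate block 1471 genes were called higher and 1373 lower, and 12 of 35 epithelial, 5 of 10 neuronal and 3 of 16 mural genes lower. Bound and input libraries with the same number deviated together with r = 0.222 in WT choroid plexus, 0.220 and 0.253 in stabilized choroid plexus and cortex, and 0.088 in WT cortex. Input was an aliquot of the homogenate, and in both choroid plexus preparations Xist and Y-linked counts ranked the 2 numbers alike in input and bound. In stabilized choroid plexus the Y-linked counts of replicates 1 and 2 were 1029 and 261 in input and 995 and 251 in bound. The labels do not say that a number marks a homogenate, and the pairing was kept as an alternative. The value of WT cortex does not bear on pairing in choroid plexus. The main fit ignores any such pairing. DESeq2 gave 1886 and 1439. Of the 146 genes named as called in choroid plexus, 99 kept their call in every setting, and of the 35 differences from cortex 21 did. The depth limits genes near 3 counts.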
